A study of Mus musculus with 8 samples.

Results

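The genes described here encode subunits and regulators of potassium channels, and subunits of voltage-gated calcium channels. They were chosen by symbol, as the autosomal protein-coding genes of the GENCODE M1 annotation (genome build mm9) whose symbols start with Kcn or Cacn. This gave 119 gene entries, 94 Kcn and 25 Cacn, of 21410 autosomal protein-coding genes with an annotated protein-coding transcript. The 119 entries stand for 117 symbols, since Kcnb2 and Kcnh8 each have a pair of entries.

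DNA double-strand breaks were mapped in mouse embryonic stem (ES) cells that lack the chromatin remodeler Chd1 and in control ES cells, to ask where breaks accumulate without Chd1. In DSB-seq, terminal transferase adds biotinylated nucleotides to broken DNA ends in fixed nuclei, and the labeled fragments are captured and sequenced. The Chd1 KO cells (Chd1Δ/Δ) were an established line with both alleles deleted. The control cells (Chd1fl/Δ, called WT in the sample titles) carried 1 floxed and 1 deleted allele, so a deleted allele was common to both genotypes. Each genotype had 2 replicates, which the authors combined before peak calling. With 1 peak list per genotype there is no replicate error for any value below, and no test between genotypes was possible from these lists. The deletion of Chd1 itself cannot be checked from these peak lists.

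Potassium channels let potassium leave the cell and so set the resting potential and end the action potential. Voltage-gated calcium channels open on depolarization and let calcium in, which starts contraction, secretion and transmitter release. Both kinds consist of a pore-forming subunit and auxiliary subunits that change gating and trafficking, and most of these genes are known for their roles in neurons, heart and muscle rather than in ES cells. Whether they were expressed in these ES cells was not analysed here.

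A gene was counted when the summit of a peak, its position of highest coverage, lay within 1 kb of a transcription start site (TSS) of one of its protein-coding transcripts. The gene body was the rest of the annotated gene. In Chd1 KO cells, 28 of the 119 channel genes had a summit within 1 kb of a TSS, a share of 23.5% (Wilson 95% interval 16.8% to 31.9%), beside 16.4% of all 21410 genes. Each of the 28 genes had 1 such peak, and none of these peaks was shared between members. By symbol, the count was 9 of 25 Cacn genes (36.0%, interval 20.2% to 55.5%) and 19 of 94 Kcn genes (20.2%, interval 13.3% to 29.4%). The intervals of the Cacn and Kcn genes overlapped. All intervals here cover counting error only.

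A Chd1 KO summit in the gene body was found for 13 channel genes, 10.9% (interval 6.50% to 17.8%), beside 4.52% of all genes. These were 7 of 25 Cacn genes (28%, interval 14.3% to 47.6%) and 6 of 94 Kcn genes (6.38%, interval 2.96% to 13.2%). Per gene these intervals did not overlap, and that of the Kcn genes included the share of all genes. Channel genes were longer than most, with a median length of 34.2 kb beside 13.3 kb for all genes. Per length of gene body, the 15 body summits of channel genes came to 1.06 per Mb (exact Poisson 95% interval 0.592 to 1.74), beside 1.18 per Mb in the bodies of all genes. The interval of the channel genes included the density of all genes. By symbol it was 1.95 per Mb in Cacn genes (interval 0.891 to 3.70) and 0.627 in Kcn genes (interval 0.230 to 1.36), and per length these intervals overlapped. When the whole annotated gene was taken as body, with the regions around TSSs, the density was 2.35 per Mb (interval 1.63 to 3.29) beside 3.88 in all genes, which lies outside that interval. That density counts TSS summits inside the gene and divides them by gene length. It is therefore lower in longer genes and does not compare bodies alone. Cacna1a and Kcng1 had both a TSS summit and a body summit. How many of all genes had both was not counted.

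In control cells no channel gene had a summit, 0 of 119 both near a TSS and in the body, which allows a share of up to 2.52% for peaks that pass the threshold of the authors. Among all genes 0.0327% had a control summit, 7 of 21410. The control summit nearest to a channel gene lay 275 kb from Kcnn1, a small-conductance calcium-activated potassium channel. The control list was short, with 54 peaks against 5671 in Chd1 KO, and its weakest peak had a −log10 p-value of 7.13 against 4.88 in the Chd1 KO list. When the Chd1 KO list was restricted to peaks at least as strong as the weakest control peak, 27 of the 28 genes remained in the count, beside 14.6% of all genes.

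Promoter GC content, the share of G and C within 1 kb of the outermost TSS, separated many of the genes with a TSS summit from those without. Its median was 62.4% in the 28 genes with a summit (quartiles 60.3% and 63.9%) and 54.2% in the 91 without (quartiles 50.1% and 57.8%), a difference of 8.17 percentage points. In all genes the corresponding medians were 58.7% and 50.0%. Channel gene promoters were also GC-rich as a group, with a median of 55.3% beside 51.3% in all genes.

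**Figure D1:**
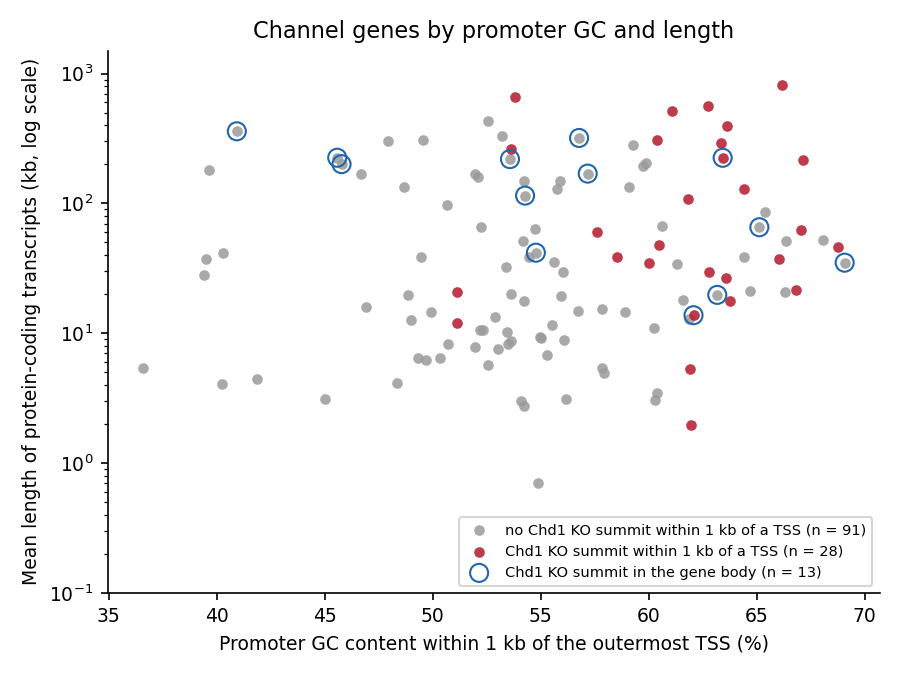
Promoter GC content (%, x axis) and mean length of the protein-coding transcripts (kb, log scale, y axis) of the 119 channel gene entries, with the 28 that had a Chd1 KO summit within 1 kb of a TSS in red and those with a body summit circled. Of the 28 red points, 24 lie at a promoter GC of 57.6% or more, and they extend from 1.97 kb to 817 kb in length.

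All autosomal protein-coding genes were divided into 5 equal classes by promoter GC. In the class of highest GC, from 57.3% upwards, 24 of 48 channel genes had a TSS summit (50.0%, interval 36.4% to 63.6%), beside 49.7% of all genes of that class. In the class below it, 2 of 33 channel genes had one (6.06%, interval 1.68% to 19.6%), beside 19.5% of all genes. In the middle class the count was 2 of 19, beside 7.86% of all genes. In the lower classes none of 11 and none of 8 channel genes had a TSS summit, beside 3.69% and 1.01% of all genes. Of the 28 channel genes with a TSS summit, 24 were in the class of highest GC (85.7%, interval 68.5% to 94.3%), beside 60.7% of all genes with one. Among the other ion channel genes described at the end it was 12 of 14, also 85.7% (interval 60.1% to 96.0%). Of the 119 channel genes, 48 fell into that class. The interval of the channel genes included the share of all genes in every class.

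**Figure D2:**
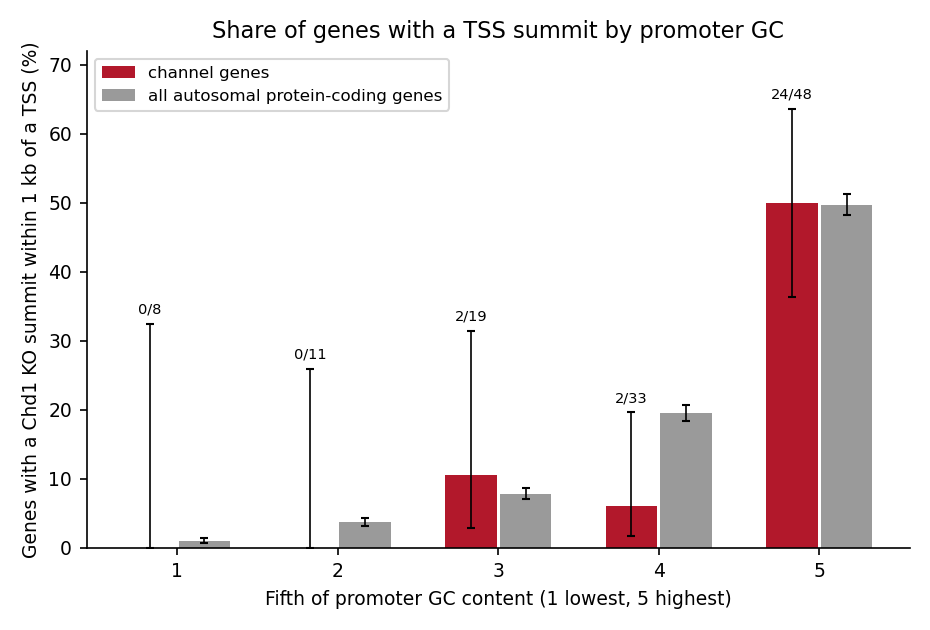
Share of genes with a Chd1 KO summit within 1 kb of a TSS (%, y axis) in 5 classes of promoter GC content (x axis, 1 lowest), for channel genes (red, counts above the bars) and all autosomal protein-coding genes (grey), with Wilson 95% intervals. In the highest class the bars stand at 50.0% and 49.7%.

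Genes with a TSS summit were longer. Their median length, taken as the mean over protein-coding transcripts, was 54.0 kb (quartiles 25.4 and 270.3 kb), against 20.6 kb (quartiles 8.73 and 106.3 kb) in channel genes without one, a ratio of 2.62. In all genes the corresponding medians were 33.1 kb and 10.9 kb. Of the channel genes under 10 kb, 2 of 28 had a TSS summit (7.14%, interval 1.98% to 22.6%), beside 7.29% of all genes in that range. From 10 to 100 kb it was 14 of 56 (25.0%, interval 15.5% to 37.7%), beside 22.0% of all genes. At 100 kb and more it was 12 of 35 (34.3%, interval 20.8% to 50.8%), beside 31.1%. In each length class the share of channel genes lay within counting error of the share of all genes. By mean transcript length, the 4 longest channel genes, Cacna2d3 (817 kb), Kcnip4 (661 kb), Kcnq5 (561 kb) and Kcnd2 (514 kb), all carried a TSS summit. By length of the annotated gene, Cacna1c (604 kb), without a TSS summit, was longer than Kcnq5 and Kcnd2.

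The members were grouped by subunit class. Genes named below beyond those that lead their class or list were chosen after their values were seen. TSS summits were found in 9 of 31 pore-forming subunits of voltage-gated potassium (Kv) channels and in 3 of 10 electrically silent Kv subunits. Auxiliary potassium channel subunits and regulators had them in 4 of 16 genes. There was 1 each among 15 inward rectifiers, 14 two-pore channels and 8 genes with Kcnma, Kcnn, Kcnt or Kcnu symbols. The last class was named for activation by calcium or sodium, which was not checked for each member. Among calcium channel genes, TSS summits were found in 3 of 9 pore-forming alpha1 subunits, 3 of 4 alpha2delta subunits, 3 of 8 gamma subunits and none of 4 beta subunits. The classes differed in promoter GC too, with a median of 64.0% in alpha2delta subunits and of 52.2% in inward rectifiers. The beta subunits, with a median of 60%, had no TSS summit, though with 4 genes the Wilson interval reached 49.0%. Auxiliary potassium channel subunits and regulators had a median of 52.1% and a share of 25.0% (interval 10.2% to 49.5%). With so few genes per class, most of these shares cannot be told from the 16.4% of all genes.

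**Figure D3:**
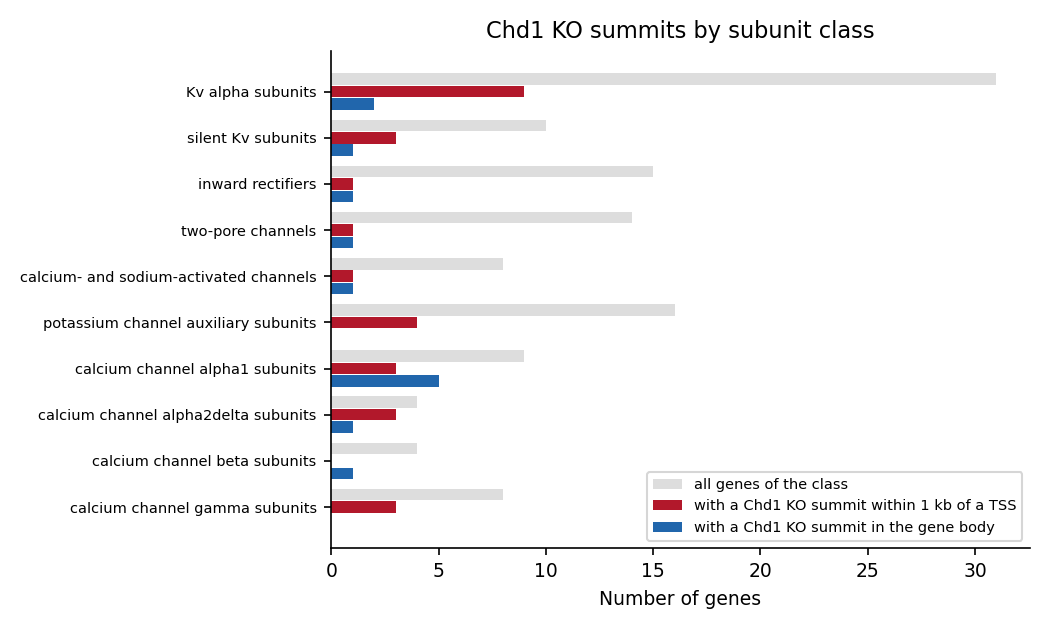
Number of channel genes (x axis) in each subunit class (y axis), in grey, with those that had a Chd1 KO summit within 1 kb of a TSS in red and in the gene body in blue. Kv alpha subunits hold the most TSS summits, 9, and alpha1 subunits the most genes with body summits, 5.

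The heights of the TSS peaks were given by the fold enrichment of the authors. It is the ratio of the reads at the summit to the local background in the same combined library. Its median over the 28 peaks was 4.38 (range 3.57 to 6.86), beside 4.53 over the 3520 TSS peaks of all genes. The number of reads at each summit, each extended to the fragment length used by the peak caller, was recovered from the fold enrichment and the p-value, and lay between 15 and 34 with a median of 21, the same median as in TSS peaks of all genes. No peak with fewer than 13 reads was in the Chd1 KO list, so weaker sites lie outside its reach. The channel gene peaks were therefore of ordinary height. Across the 28 genes, Spearman's rho of fold enrichment was -0.11 with promoter GC and 0.25 with gene length. These values are a description over genes, which share 1 peak list from the combined replicates.

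**Figure D4:**
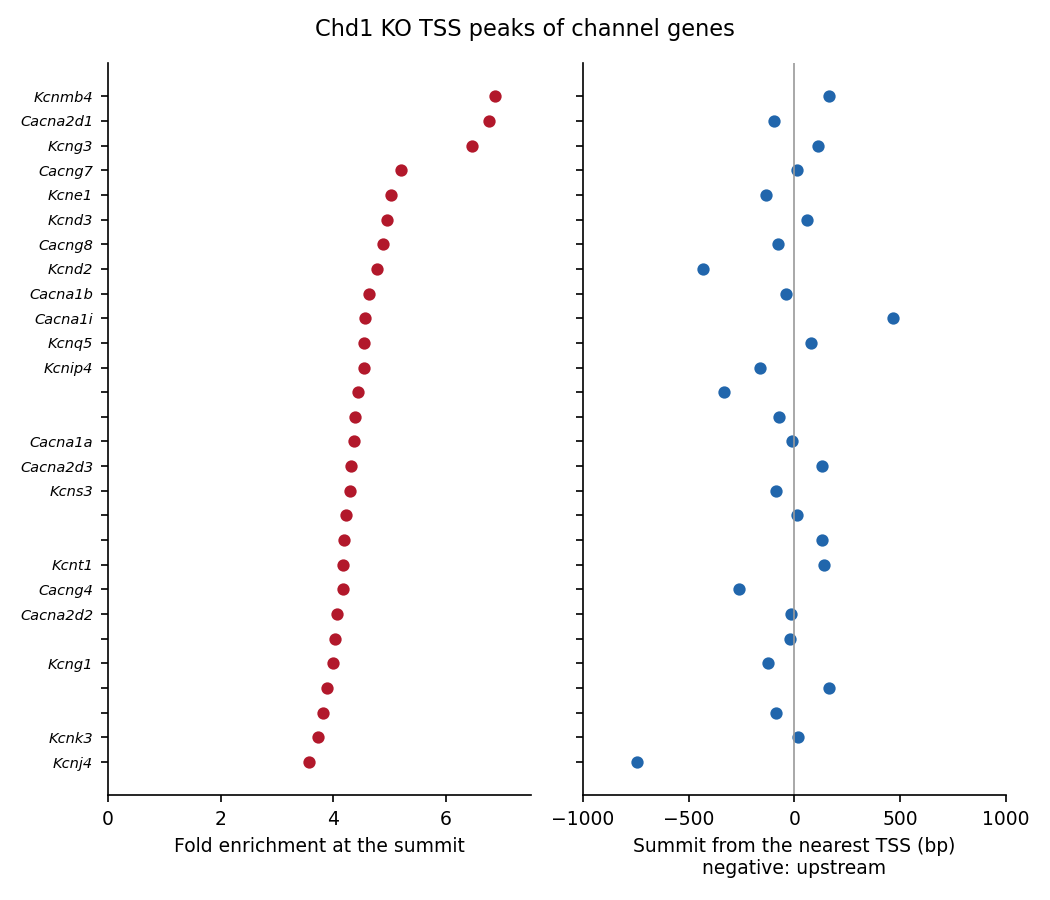
Fold enrichment at the summit (left) and position of the summit relative to the nearest TSS in bp (right, negative upstream) for the 28 channel genes with a Chd1 KO summit within 1 kb of a TSS, ordered by fold enrichment and labeled for the genes that lead their class or list. Kcnmb4, Cacna2d1 and Kcng3 stand apart at 6.86, 6.77 and 6.45, and the next gene, Cacng7, is at 5.20.

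The sequences under the tallest TSS peaks, and under those of the members with the lowest promoter GC, are shown as examples of the GC-rich stretches counted below. Each is read from mm9 in the sense of the gene, 5′ to 3′, and capitals mark stretches in which only G and C follow each other for 12 bp or longer (GC stretches below). For Kcnmb4, Kcng3 and Cacng7 the longest such stretch of the peak is given with its flanks.
Kcnmb4, chr10:115910825-115910854, minus strand: cggaGCGCGCGGGGGCGGGGGCGGGCtcgg
Kcng3, chr17:84030928-84030954, minus strand: ccttCGGGCGCGGCGGGGCGGCCtcgg
Cacng7, chr7:3333006-3333035, plus strand: ctCGGGGGCGGGGGCGGGGGGCGCGGGCac
Kcne1, chr16:92359788-92359908, minus strand: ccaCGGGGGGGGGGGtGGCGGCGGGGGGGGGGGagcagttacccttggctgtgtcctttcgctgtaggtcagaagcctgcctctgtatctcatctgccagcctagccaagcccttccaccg
Cacng8, chr7:3394431-3394551, plus strand: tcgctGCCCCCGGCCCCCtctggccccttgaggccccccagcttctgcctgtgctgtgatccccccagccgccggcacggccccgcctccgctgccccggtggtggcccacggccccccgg
The Kcnmb4 stretch lies in a non-coding part of an exon, that of Kcng3 in coding sequence, and that of Cacng7 upstream of the gene. The windows of Kcne1 and Cacng8 are 121 bp centred on the summit and lie upstream of the gene, with no annotated exon in them. The stretch shown was centred 67 bp upstream of the summit for Kcnmb4 and 50 bp upstream for Cacng7. For Kcng3 it was centred 182 bp downstream. Cacna2d1 had the second tallest peak. Its window of 121 bp around the summit held no stretch of 12 bp. The longest stretch of its peak was centred 274 bp from the summit, the farthest of the 28.

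Every one of the 28 TSS peaks held a GC stretch of 12 bp or longer, as did 97.1% of the TSS peaks of all genes. A stretch of 20 bp or more was found in 17 of 28 (60.7%, interval 42.4% to 76.4%), beside 51.2% of the TSS peaks of all genes. The centre of the longest stretch lay a median of 61 bp from the summit, and within 100 bp of it in 18 of 28. Within 1 kb of the outermost TSS, 30 of 119 channel genes had a stretch of 20 bp or more (25.2%), beside 16.7% of all promoters. Of those 30 promoters, 18 had a TSS summit (60%, interval 42.3% to 75.4%), and of the 89 without such a stretch 10 had one (11.2%, interval 6.22% to 19.5%). These intervals did not overlap, and the shares in all genes were 57.9% and 8.08%. Promoter GC and the presence of a long stretch go together, and their parts in these shares were not told apart.

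Among the pore-forming Kv subunits, the highest fold enrichments belonged to Kcnd3 and Kcnd2, which carry the fast-inactivating A-type current. The Kcnd3 peak (chr3:105255122-105255681) had a fold enrichment of 4.95 with 20 reads at the summit, 58 bp downstream of the TSS in a non-coding part of an exon. That of Kcnd2 (chr6:21164903-21165207) had 4.78 with 19 reads, with its summit 430 bp upstream. Kcnq3 and Kcnq5 take part in the M-type channels that restrain neuronal firing, and their fold enrichments were 4.44 and 4.54. Kcnq1, the pore of the slow cardiac delayed rectifier, had 4.18. Kcnh3, an ether-à-go-go-like channel of the forebrain, had a fold enrichment of 4.23 with its summit 13 bp downstream of the TSS, and it was the only one of the Kcnh genes with a TSS summit.

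Most of the Shaker-type genes lie in clusters. On chromosome 3, Kcna3, a channel of T lymphocytes, and Kcna2, a channel of axons, stand 63.4 kb apart, and both had a TSS summit, with fold enrichments of 3.82 and 3.90 on 15 and 17 reads. By p-value Kcna3 had the weakest TSS peak of the group, and it was the gene that dropped out when the list was restricted to the strength of the control peaks. Kcna10, 76.2 kb further along, had none, with a promoter GC of 49.0% against 62.0% and 61.9% in its neighbours. In the cluster of Kcna5, Kcna1 and Kcna6 on chromosome 6 no gene had a TSS summit, at a promoter GC of 54.1%, 55.0% and 60.4%. Kcna4 and Kcna7, which stand alone, had none either, at 52.0% and 57.8%. Kcna2 and Kcna3, at 5.31 and 1.97 kb, were also the shortest channel genes with a summit.

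Silent Kv subunits form no channel alone and modify the channels of the Kcnb genes. Kcng3 had the strongest peak of this class (chr17:84030925-84031271), with a fold enrichment of 6.45, 26 reads and its summit 112 bp downstream of the TSS, and its promoter GC of 68.8% was the highest of the genes with a TSS summit. Kcns3 followed at 4.30 and Kcng1 at 3.99.

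Inward rectifiers and two-pore channels hold the resting potential. TSS summits were found in 6.67% of the inward rectifiers (interval 1.19% to 29.8%) and 7.14% of the two-pore channels (interval 1.27% to 31.5%), and both intervals included the 16.4% of all genes. Kcnj4, a strong inward rectifier of brain and heart, was the only one of 15 Kcnj genes. Its peak (chr15:79336111-79336549) had the lowest fold enrichment of the 28, 3.57, and was the farthest from a TSS, 743 bp upstream. Kcnk3, an acid-sensitive background channel, was the only one of 14 Kcnk genes, with 3.73 and its summit 19 bp downstream of the TSS. Its peak held the longest stretch of G and C among the TSS peaks, 39 bp. The class of highest promoter GC held 3 of 15 inward rectifiers and 4 of 14 two-pore channels, beside 4283 of all 21410 genes. Of the channels opened by intracellular ions, the sodium-activated Kcnt1 had a peak with a fold enrichment of 4.17, at an alternative TSS, 14168 bp downstream of the outermost one.

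The auxiliary potassium channel subunits included the strongest TSS peak of all channel genes, at Kcnmb4, the beta subunit of large-conductance calcium-activated channels in neurons. The peak (chr10:115910580-115910970) had a fold enrichment of 6.86, 34 reads and a −log10 q-value of 15.3, with its summit 162 bp downstream of the TSS. Of all genes with a TSS summit, 1.14% had a fold enrichment as high or higher. Kcnma1, the pore that Kcnmb4 modifies, had no summit at its promoter, whose GC was 47.9%. Kcne1, the partner of Kcnq1 in the heart, had a fold enrichment of 5.02 with its summit 135 bp upstream. Its promoter GC, 51.1%, was the lowest among genes with a TSS summit together with that of Cacng8. Kcne2, 47.9 kb away, had none.

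Kcnip4 and Kcnip1 encode calcium-binding proteins that attach to the A-type Kcnd channels. The Kcnip4 peak had a fold enrichment of 4.54, 162 bp upstream of the TSS, and that of Kcnip1 had 4.39. The Kcnip1 summit lay at an alternative TSS, 149180 bp downstream of the outermost one, and the promoter GC of 53.6% given for the gene does not describe the sequence under the peak, which was 75.2% G and C.

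Among the alpha1 subunits, the pores of calcium channels, TSS summits lay at genes of the P/Q, N and T types. Cacna1b, the N-type pore of presynaptic terminals, had a fold enrichment of 4.64 (chr2:24618356-24618755), with its summit 37 bp upstream of the nearest TSS. Cacna1i, a low-threshold T-type pore, had 4.56, 468 bp downstream. Cacna1a, the P/Q-type pore, had 4.37 on 31 reads, 9 bp upstream. None of the autosomal L-type genes Cacna1c, Cacna1d and Cacna1s had a TSS summit. The T-type genes Cacna1g and Cacna1h and the R-type gene Cacna1e had none either.

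The alpha2delta subunits bring alpha1 pores to the membrane, and Cacna2d1 and Cacna2d2 bind the drug gabapentin. Cacna2d1 had the second strongest TSS peak of the group (chr5:15440280-15440898), with a fold enrichment of 6.77, 30 reads and its summit 98 bp upstream of the TSS. At 619 bp it was also the widest of the 28 TSS peaks, against a median of 314.5 bp, and it held a stretch of 38 bp of G and C. Cacna2d3 had 4.31 and Cacna2d2 had 4.07. Cacna2d4 had no TSS summit.

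Of the gamma subunits, Cacng7, Cacng8 and Cacng4, better known for regulating AMPA-type glutamate receptors than calcium channels, had TSS summits with fold enrichments of 5.20, 4.89 and 4.17. Cacng7 and Cacng8 are neighbours on chromosome 7, 26.8 kb apart. Cacng6 follows after 10.1 kb and had none. Its promoter GC of 53.4% lay above the 51.1% of Cacng8 and below that of Cacng7. On chromosome 11, Cacng4 had a summit and its neighbours Cacng1, a subunit of skeletal muscle channels, and Cacng5 had none, with promoter GC of 67.1%, 52.9% and 54.5%. Apart from the pair of Cacng7 and Cacng8, neighbours in these clusters thus differed.

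TSS summits of channel genes lay upstream of the nearest TSS in 16 cases and downstream in 12, with a median of -17 bp. Over the 3804 pairs of a gene and a TSS summit in all genes, 62.8% lay downstream, with a median of 67 bp. The share downstream in channel genes, 42.9%, had an interval of 26.5% to 60.9%, which left out the share of all genes. Among the other ion channel genes described at the end, it was 64.3% (interval 38.8% to 83.7%). In relation to the annotated gene, 9 summits lay upstream of it, 11 in a non-coding part of an exon, 4 in coding exons and 4 in introns of longer transcripts. At 3 genes, Cacng4, Kcnd3 and Kcnmb4, the TSS of another annotated gene lay within 1 kb of the summit, and at none was it a protein-coding gene. The members closest to the limit of 1 kb on the inside were Kcnj4 at 743 bp, Cacna1i at 468 bp and Kcnd2 at 430 bp. On the outside they were Cacna1h, with its nearest summit 1530 bp from a TSS, Kcnn2 with 1565 bp and Kcnj14 with 8330 bp, so few genes lay near the limit.

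High GC did not always come with a peak. Genes of high promoter GC without a TSS summit included Cacna1h, a T-type calcium channel (69.1%), Kcnk12, a two-pore channel (68.1%), and Kcnc4, a fast-activating Kv channel (66.3%). The GC of Cacna1h exceeded that of every channel gene with a TSS summit. All 3 also had a GC stretch of 20 bp or more within 1 kb of the TSS, of 22, 23 and 26 bp. By length of the annotated gene, the longest without a TSS summit were Cacna1c (604 kb) and Kcnma1 (505 kb). By mean transcript length, the 5 longest without one were Kcnh7, of the ether-à-go-go-related channels (429 kb), Cacna1d (359 kb), the R-type calcium channel Cacna1e (333 kb), the ether-à-go-go channel Kcnh1 (319 kb) and the sodium-activated Kcnt2 (307 kb). Their promoter GC was between 40.9% and 56.8%, below the median of the genes with a summit.

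Of the 15 body summits, 7 lay in alpha1 subunits, in 5 of the 9 genes. Per length of gene body this was 3.38 per Mb (Poisson interval 1.36 to 6.96), beside 1.18 in all genes. Leaving out 1 kb around all annotated TSSs, 5 summits remained, at 2.46 per Mb (interval 0.80 to 5.75), which included the 1.02 of all genes. Silent Kv subunits had 5.97 per Mb, but from 1 summit, with an interval of 0.151 to 33.3. Cacna1d, an L-type pore of neurons and endocrine cells, had a pair of them, both in introns. The summit nearer the 3′ end had a fold enrichment of 6.65 with 36 reads, and the other had 6.41 with 34. Cacna1g, a T-type pore, had the strongest, with a fold enrichment of 6.80, 39 reads and a −log10 q-value of 17.4, in an intron. These 3 peaks exceeded most TSS peaks of channel genes in height. Cacna1a had a pair as well, both in coding exons, with fold enrichments of 4.89 (chr8:87083095-87083557) and 4.08 (chr8:87163178-87163524). Cacna1c, the L-type pore of heart and brain, had 4.26 in an intron (chr6:119058417-119059039) and Cacna1h had 4.02 (chr17:25515715-25516168).

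The remaining body summits each belonged to a single gene. In calcium channel genes they were at Cacnb4, a beta subunit of the brain, with a fold enrichment of 5.19, and at Cacna2d4, with 4.89. In potassium channel genes they were at Kcnh1 (5.79), Kcng1 (4.64), Kcnb2 (4.30), the inward rectifier Kcnj12 (4.17), the two-pore channel Kcnk5 (4.17) and the small-conductance calcium-activated channel Kcnn2 (4.06). The median over the 15 body peaks was 4.64, beside 4.60 in body peaks of all genes. Of the 15 summits, 13 lay in introns and 2, those of Cacna1a, in coding exons, and 12 lay over 1 kb away from any annotated TSS. The exceptions were the second summit of Cacna1a, at 453 bp, that of Cacna1h, at 178 bp, and that of Cacnb4, at 373 bp from a TSS not used for the count.

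**Figure D5:**
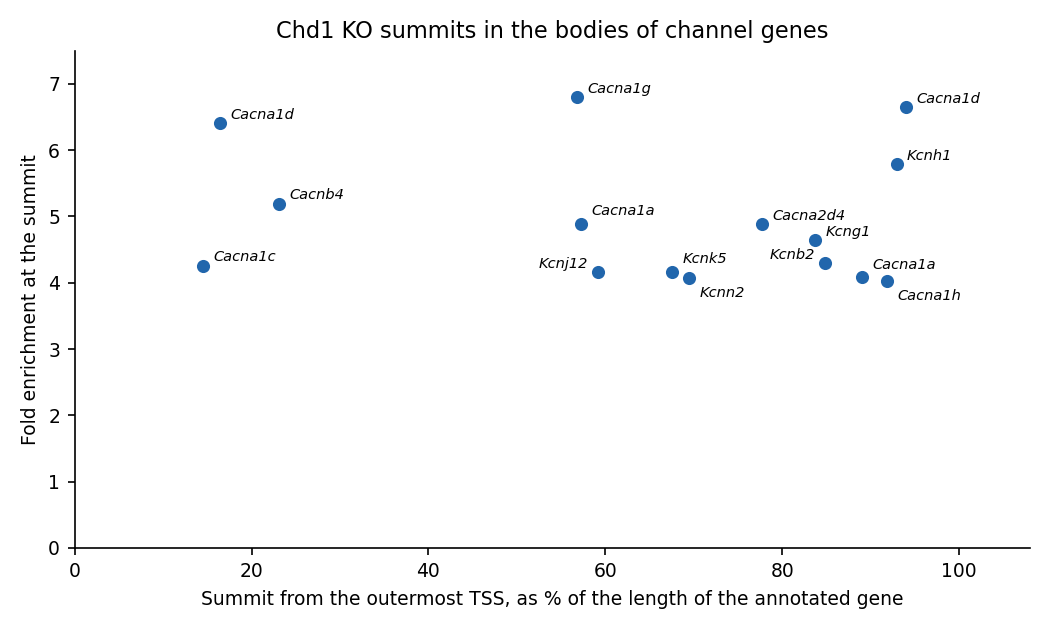
Fold enrichment at the summit (y axis) of the 15 Chd1 KO summits in the bodies of channel genes against their distance from the outermost TSS, as a percentage of the length of the annotated gene (x axis). The summits of Cacna1g and the pair of Cacna1d are the highest, from 6.41 to 6.80.

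The intronic sequences show which kinds of stretch lay under some of these peaks. Windows of 121 bp centred on the summit are given in the sense of the gene from mm9, again with GC stretches of 12 bp or longer in capitals, for Kcnh1, Kcnk5 and Kcnb2, whose sequences differ in kind. For the coding summit of Cacna1a nearer the 5′ end, the longest stretch and its flanks are given.
Kcnh1, chr1:194311424-194311544, plus strand: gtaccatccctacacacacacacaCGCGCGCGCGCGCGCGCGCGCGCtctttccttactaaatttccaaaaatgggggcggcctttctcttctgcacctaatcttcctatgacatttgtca
Kcnk5, chr14:20972752-20972872, minus strand: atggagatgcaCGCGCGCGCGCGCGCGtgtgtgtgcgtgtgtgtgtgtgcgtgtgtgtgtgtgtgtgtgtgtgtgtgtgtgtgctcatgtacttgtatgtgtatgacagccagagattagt
Kcnb2, chr1:15641205-15641325, plus strand: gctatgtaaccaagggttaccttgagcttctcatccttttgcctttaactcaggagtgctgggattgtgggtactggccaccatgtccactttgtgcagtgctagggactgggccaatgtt
Cacna1a coding exon, chr8:87083404-87083432, plus strand: ccaCCGCGCCCGCCGCCGGCCCGGGGacg
The window of Kcnh1 holds alternating C and G. Kcnk5 joins alternating C and G to a repeat of TG. Kcnb2 had no stretch of 12 bp, its longest being 7 bp.

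GC stretches of 12 bp or longer were found in 13 of the 15 body peaks and in 91.6% of the body peaks of all genes, and stretches of 20 bp or more in 9 of 15 (60%, interval 35.7% to 80.2%) beside 58.7%. The peaks without one of 12 bp were those of Kcnb2 and Kcnj12. Repeats of CA or TG of at least 20 bp were found in 1 of 15, that of Kcnk5, with 32 bp (6.67%, interval 1.19% to 29.8%), beside 20.3% of the body peaks of all genes. The body peaks were less GC-rich than the TSS peaks, with a median of 56.7% against 76.8%. Both medians lay close to those of all genes, 56.5% and 76.7%.

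A comparison list of 64 other ion channel genes held sodium, chloride, Hcn, Trp and Catsper channels, calcium release and store-operated channels, and Dpp partners of Kcnd channels. Of these, 14 had a Chd1 KO summit within 1 kb of a TSS (21.9%, interval 13.5% to 33.4%) and 6 had one in the body (9.38%, interval 4.37% to 19.0%). These shares overlapped with the 23.5% and 10.9% of the potassium and calcium channel genes. A control summit was found for 1 of the 64.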

How the data were processed

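DSB-seq peak lists of Chd1 KO and control mouse ES cells were used, 1 per genotype. The authors aligned to mm9 with Bowtie2, filtered by mapping quality, kept 1 read per position, combined replicates, called peaks with MACS2 and removed peaks in blacklisted regions. The fold enrichment at the summit is a ratio computed by the authors within each combined library. Beside it the authors gave a p-value and a q-value, each as −log10. The distance of the summit from the peak start was taken as deposited. Data on Chd1 and Pol II binding, signal tracks and expression were not analysed here.

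TSSs, exons and lengths came from GENCODE M1, and sequence from the mm9 genome. Reads and background were recovered by taking the fold enrichment as reads plus 1 over background plus 1 and the p-value as Poisson. Scripts were tested on simulated data. Shares have Wilson 95% intervals, and densities exact Poisson intervals. For the control, where no member was counted, 3 counts were taken as the limit instead. Python 3.11.15, NumPy 2.4.6, SciPy 1.17.1, pysam 0.24.0, samtools 1.23.1 and Matplotlib 3.10.9 were used.

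Named genes were the 10 TSS peaks of highest fold enrichment, the 5 genes with most body summits, genes with a control summit, the 5 of highest promoter GC and the 5 longest without a TSS summit, the 3 nearest the 1 kb limit on each side, and up to 3 per subunit class of highest fold enrichment. Further members were named after their values were seen. The members and lists were chosen with earlier results of these data known. Some genes and sequences that these rules would name are not reported here.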

Additional observations from a re-analysis of the deposited data

How the results depend on the processing

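No paired analysis was possible because the peak lists used here combine the replicates of each genotype, and leaving out a replicate was not run for the same reason. Over 67 combinations of result and alternative setting, 62 gave counts within 1.5 times the main count or values within its interval, and none changed direction. These 62 include the control count, which was 0 in each setting run and so had no 1.5-fold range. They also include a q-value limit of 0.001, which left the counts of channel genes unchanged. With genes of 1 TSS, 56 genes remained and 11 had a TSS summit, beside 11.3% of all such genes. With the whole annotated gene as body, 30 genes had a body summit, beside 15.9% of all genes, at 2.35 per Mb (interval 1.63 to 3.29) beside 3.88 in all genes. TSS summits count in that density and are divided by the length of the gene, which was greater in channel genes. With GC within 500 bp of the TSS, the difference in median GC was 11.7 percentage points. With stretches of G and C of 12 bp or more, 100% of TSS peaks held one. The other settings gave 23 to 29 genes with a TSS summit. The lowest, 23 of 119, came with only 100 bp counted downstream and 1 kb upstream, beside 9.85% of all genes. Counting 1 entry per symbol, chosen after seeing the data, left 28 genes of 117. Without values per replicate, the spread between cultures is unknown, and sites with few reads cannot be told from sites without breaks.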
